A study of Mus musculus with 12 samples.

Results

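Heart was set against liver on 6 of the 12 arrays of a mouse series, the 3 heart arrays and the 3 liver arrays, which were chosen by their tissue label alone. Each tissue had 1 array of wild type (WT) mice, 1 of p66-/- mice, which lack the p66Shc isoform of the Shc1 adaptor, and 1 of p53-/- mice, which lack the tumour suppressor p53. The mice were of the Sv/129 strain and 2 months old, no treatment is given in the labels, and each array held RNA pooled from 4 mice. Lung and thymus of the same genotypes supplied the other 6 arrays and were used where a gene had the same level in heart and liver. Transcripts were measured on Affymetrix arrays and are given as log2 signals, so that a difference of 1 is 2-fold. Values of a tissue are given in the order WT, p66-/-, p53-/-, and a difference is heart minus liver.

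The heart burns fuel without pause to contract. It takes up fatty acids, lactate, ketone bodies and glucose from blood, oxidises them in densely packed mitochondria, and buffers its ATP with phosphocreatine. The liver serves the other organs, since it makes and releases glucose, ketone bodies, bile acids, urea, lipoproteins and most plasma proteins, stores glycogen for export and clears drugs and hormones. Many enzymes and carriers of these pathways exist in several gene forms, of which muscle and liver are known to use different ones.

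A gene was called when its difference was 2-fold or more with a Benjamini-Hochberg adjusted p under 0.05 over 18193 genes, in limma on the 6 arrays with genotype as a block. By this rule 1412 genes (7.76%) were higher in heart and 2010 (11.0%) were higher in liver, of which 128 and 304 differed 16-fold or more. Of 1956 called genes with several probe sets, 1423 had every probe set in the same direction. For 13 of the 1956, a probe set was 2-fold or more the other way. The heart minus liver difference had the same sign in all 3 genotypes for 3417 of the 3422 called genes (18.8% of all). It was 2-fold or more in all 3 genotypes for 2614 of them. The calls rest on these same 3 differences, so the agreement in sign is largely set by the rule. Arrays correlated at r = 0.976 to 0.986 within heart, at 0.989 to 0.993 within liver and at 0.756 to 0.791 between heart and liver, across genes, which are not independent replicates. The median SD over the 3 arrays was 0.209 in heart and 0.133 in liver. Probe sets of 71 olfactory and vomeronasal receptor genes served as a level of silence, and their 95th percentile lay at 6.93, 7.38 and 7.17 on the heart arrays and at 6.86, 6.9 and 7.24 on the liver arrays. The median difference over all genes was 0.14. The p-values and SEs of the fit start from the spread over the 3 genotypes, each of 1 pool per tissue. In limma this spread is drawn toward a spread shared by all genes. With 2 residual and 10.6 prior degrees of freedom, most of the weight lay on the shared spread. The labels do not say whether the heart and liver pools came from the same mice.

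Both tissues carried their own defining markers. All 12 cardiomyocyte markers were called higher in heart, where their mean log2 signal was 14.0, 13.72 and 13.92, against 6.83, 6.75 and 6.77 in liver. All 13 hepatocyte markers were called higher in liver, with a mean of 7.37, 7.07 and 6.51 in heart and 13.92, 13.80 and 13.78 in liver. The heart arrays were also higher in markers of other cells. All 12 fibroblast and smooth muscle markers were called higher in heart, among them Acta2 (3.0), the smooth muscle actin, and Col3a1 (2.88), a fibrillar collagen, and so were 8 of 12 endothelial markers. Of 8 adipocyte markers 4 were called higher in heart and 1 in liver, against 7.76% and 11.0% of all genes. Those of heart were Fabp4 (5.18), the fatty acid binding protein of fat cells, the adipokine Adipoq (4.62), and Cidea (3.99) and Ucp1 (2.56), which are typical of brown fat. The one of liver was the carbonic anhydrase Car3 (-2.82), which hepatocytes also express. The adipocyte list averaged 9.68, 8.68 and 9.08 in heart and 7.16, 7.24 and 7.40 in liver. In whole tissue, fewer cells of a type and less RNA per cell cannot be told apart.

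The WT heart array stood apart from the other heart arrays. It held salivary gland transcripts, with a list mean of 8.16, against 5.75 and 5.44 on the p66-/- and p53-/- heart arrays and 5.59, 5.69 and 5.74 on the liver arrays, and it had the highest adipocyte mean. Of the 14 salivary gland markers, 7 were called higher in heart with all arrays and 0 without the WT heart array. Without that array, in a fit with no genotype block, 1343 genes were higher in heart and 2232 in liver, and each of the pathway lists described here kept its counts to within 2 genes. The WT heart array also had the highest neutrophil mean of the heart arrays, with 7.63, against 6.65 and 6.79 on the p66-/- and p53-/- heart arrays and 7.51, 6.42 and 6.43 on the liver arrays. Of the 7 neutrophil markers, S100a8 and S100a9 were called higher in heart with all arrays and neither was called without the WT heart array. Lcn2 was called higher in liver with all arrays. It was not called without the WT heart array, in the fit that also had no genotype block. Without both WT arrays and with the block, 1 neutrophil marker was called higher in liver and 0 in heart. The log2 of the summed neutrophil signal was 12.67 on the WT liver array, against 9.27 and 9.36 on the p66-/- and p53-/- liver arrays. Of 12 skeletal muscle markers, Ckm (5.27), Acta1 (3.44) and Myl1 (1.52) were called higher in heart, the first pair of which heart muscle also expresses. The 3 called higher in liver were Myh1 (-2.3), Tnnc2 (-2.25) and Tnnt3 (-1.07). Over all genes 7.76% were called higher in heart and 11.0% in liver. Myh1, a fast myosin, read 3.7, 4.45 and 4.35 in heart and 8.25, 4.51 and 6.65 in liver and was above silence on the WT liver array alone.

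**Figure D1:**
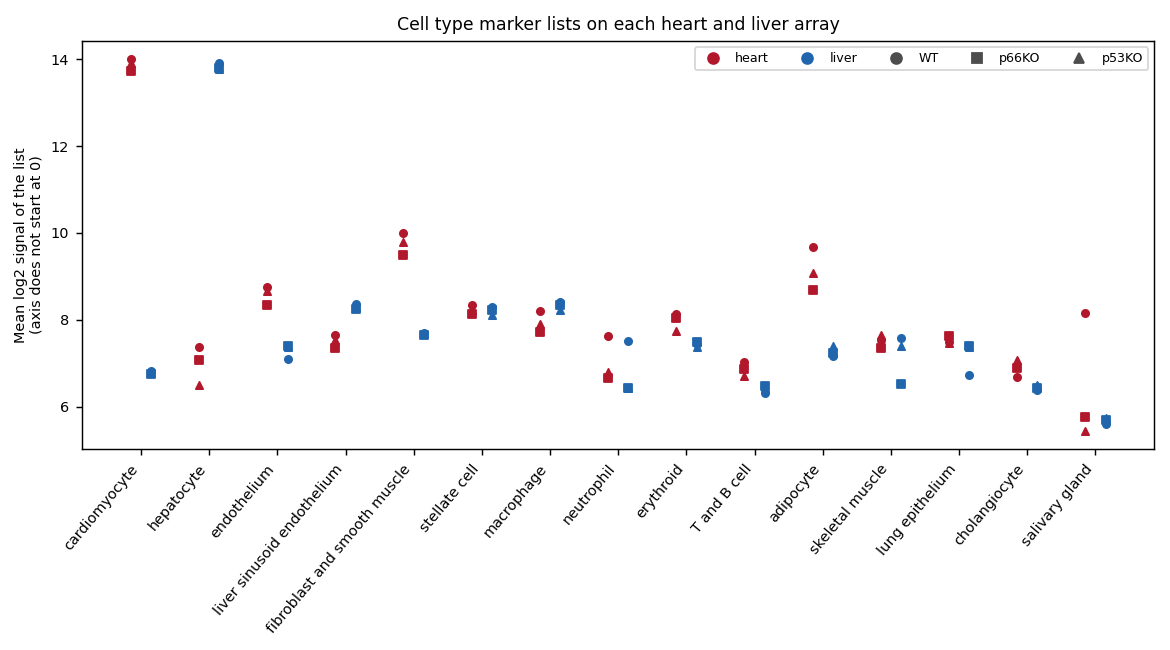
Mean log2 signal of each cell type marker list (horizontal axis) on each heart array (red, left of each pair) and liver array (blue, right), with symbols for the 3 genotypes. Cardiomyocyte and hepatocyte markers lie near 14 in their own tissue and near 7 in the other, and the WT heart array is the only one of the 6 with a salivary gland mean above 8.

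Contractile genes led the differences in favour of heart. Of 47 measured genes of the sarcomere and Z disc, 41 (87.2%) were called higher in heart and 0 in liver, against 7.76% and 11.0% of all genes, and the median difference was 5.36. The largest difference of all genes was that of Tnnt2, the cardiac troponin that anchors the thin filament switch to tropomyosin, with 14.28, 14.16 and 14.17 in heart and 5.23, 5.31 and 4.48 in liver (9.2 ± 0.17, SE; adjusted p = 4e-13, limma). Tnni3, the inhibitory troponin, read 14.16, 13.74 and 14.01 in heart and 5.09, 5.45 and 5.0 in liver. Myh6, the fast cardiac myosin heavy chain, read 14.57, 14.46 and 14.46 and 5.67, 5.94 and 5.83, whereas Myh7, the slow chain that dominates in hearts of larger mammals, read 9.26, 9.09 and 8.39 in heart and 6.17, 5.79 and 5.54 in liver. For these 4 genes all liver values lay below the level of silence, and heart and liver arrays were far apart. The 6 members not called included Smyd1 and Synpo2l, for which other probe sets were 2-fold or more higher in heart (up to 4.96 and 4.33).

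Calcium handling and membrane excitability followed the same direction. Of 28 calcium genes, 21 were called higher in heart (median of the list 2.37), against 7.76% of all genes. They included Ryr2, the release channel of the sarcoplasmic reticulum, at 12.26, 12.06 and 12.12 in heart and 4.87, 5.21 and 4.92 in liver, and its pump Atp2a2 at 14.33, 14.3 and 14.4 in heart and 9.86, 9.5 and 9.04 in liver. Atp2a2 was thus well above silence in both tissues, whereas its inhibitor Pln (7.55) was above silence in heart alone. The oxygen store Mb read 14.82, 14.65 and 14.67 in heart and 8.9, 7.77 and 8.74 in liver. Itpr2, an inositol trisphosphate receptor, was the only calcium gene called higher in liver (-1.17), but its probe sets disagreed, with differences between -1.17 and 0.4. Of 26 ion channel and pump genes 15 were called higher in heart and 0 in liver, against 7.76% and 11.0% of all genes. The 15 were led by the gap junction gene Gja1 (5.55), the potassium channel Kcnk3 (4.43) and the calcium channel subunits Cacna2d1 (4.15) and Cacna1c (3.87). The chosen probe set of the exchanger Slc8a1 did not differ 2-fold (0.08), while another reached 1.43.

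The start regions of the genes that divided the tissues most were searched for letters bound by known muscle and liver factors. The windows were the 300 bases of RefSeq promoters, from 250 before to 50 after the start, in build GRCm38.p6, and 14452 of the 18193 genes had at least 1. The CArG box, bound by serum response factor, was found in 20.4% of 54 sarcomere promoters, in 7.75% of 142 promoters of genes 16-fold or more higher in heart and in 1.35% of 18109 promoters of all genes tested. The MEF2 site was found in 7 of these sarcomere promoters, in 14 of the 142 (9.86%) and in 381 of the 18109 (2.10%). The M-CAT element CATTCC, bound by TEA domain factors, was found in 31.5% of sarcomere promoters and in 25.0% of those of plasma protein genes, against 13.2% of all. The letters GTTAAT, the core of sites of the liver factor HNF1, were found in 29.2% of 72 plasma protein promoters, in 15.1% of 291 promoters of genes 16-fold or more higher in liver and in 5.30% of all. They were also found in 11.1% of the sarcomere promoters and in 7.04% of those of genes 16-fold or more higher in heart. An exact HNF4 site was found in 0 of the 72 plasma protein promoters, in 3.44% of the 291 and in 0.491% of all, and the element of estrogen-related receptors in 0 of the sarcomere and 0 of the plasma protein promoters and in 0.342% of all. Both strands were searched, the MEF2 and CArG patterns allow A or T at their centres, and a MEF2 match can contain the TATA box letters TATAAA. Of all 32851 promoters of that length in the table, 1.63% held the CArG box, 3.19% the MEF2 site, 14.7% the M-CAT element and 7.10% the HNF1 core. A match describes the letters and is not evidence of binding.

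Promoters of 3 heart genes and 3 liver genes are shown because each holds such a match, in capitals, and they were picked for it. For heart these are Actc1 (cardiac actin, 7.0) with a CArG box at chr2:114052826-114053125 on the minus strand, Pgam2 (muscle phosphoglycerate mutase, 5.33) with a MEF2 site at chr11:5803747-5804046 on the minus strand, and Tnnt2 with an M-CAT element at chr1:135836084-135836383 on the plus strand. The matches begin 47, 80 and 27 bases before the start. For liver they are Alb (albumin, -5.99) at chr5:90460620-90460919 on the plus strand, Fabp1 (liver fatty acid binding protein, -7.56) at chr6:71199629-71199928 on the plus strand and Fgb (fibrinogen beta chain, -8.37) at chr3:83049814-83050113 on the minus strand, each with the HNF1 core. These matches begin 32, 107 and 29 bases before the start, and Fgb holds the letters of the other strand, ATTAAC. The Pgam2 window also holds an M-CAT match. The window of the liver gene Fgb holds a MEF2 and an M-CAT match, so that these letters are not confined to promoters of heart genes.
Actc1: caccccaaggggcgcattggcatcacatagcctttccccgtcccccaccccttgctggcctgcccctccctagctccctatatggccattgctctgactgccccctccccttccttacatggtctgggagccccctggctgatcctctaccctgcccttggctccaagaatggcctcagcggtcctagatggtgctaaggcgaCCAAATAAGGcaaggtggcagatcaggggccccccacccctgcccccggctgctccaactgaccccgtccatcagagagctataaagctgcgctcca
Pgam2: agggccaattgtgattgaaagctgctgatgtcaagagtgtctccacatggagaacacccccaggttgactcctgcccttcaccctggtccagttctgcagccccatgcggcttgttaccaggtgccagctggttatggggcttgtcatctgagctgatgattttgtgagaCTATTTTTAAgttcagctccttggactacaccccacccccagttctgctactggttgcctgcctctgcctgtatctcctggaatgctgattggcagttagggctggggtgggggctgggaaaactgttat
Tnnt2: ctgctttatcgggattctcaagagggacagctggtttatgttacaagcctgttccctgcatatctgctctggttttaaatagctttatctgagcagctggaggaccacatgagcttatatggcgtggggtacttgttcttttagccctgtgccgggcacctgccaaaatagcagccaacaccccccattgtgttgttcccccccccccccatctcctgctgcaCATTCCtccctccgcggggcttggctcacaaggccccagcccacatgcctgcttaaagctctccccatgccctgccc
Alb: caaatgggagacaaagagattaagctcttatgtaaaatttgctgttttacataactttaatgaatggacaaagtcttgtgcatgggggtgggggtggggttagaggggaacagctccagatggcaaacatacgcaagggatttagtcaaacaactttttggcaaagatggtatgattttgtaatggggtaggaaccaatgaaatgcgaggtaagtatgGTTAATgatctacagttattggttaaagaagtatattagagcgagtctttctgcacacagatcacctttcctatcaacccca
Fabp1: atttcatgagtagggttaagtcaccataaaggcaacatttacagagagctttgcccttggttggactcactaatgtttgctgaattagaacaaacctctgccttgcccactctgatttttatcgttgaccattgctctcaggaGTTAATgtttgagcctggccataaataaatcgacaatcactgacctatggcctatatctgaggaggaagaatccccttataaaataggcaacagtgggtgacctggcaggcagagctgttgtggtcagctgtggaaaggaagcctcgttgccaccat
Fgb: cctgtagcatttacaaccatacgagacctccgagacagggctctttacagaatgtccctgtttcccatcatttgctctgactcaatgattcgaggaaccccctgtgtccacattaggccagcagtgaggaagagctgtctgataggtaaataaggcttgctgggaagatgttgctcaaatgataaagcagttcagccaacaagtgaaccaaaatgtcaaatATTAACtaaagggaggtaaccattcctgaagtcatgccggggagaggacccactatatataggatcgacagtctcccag

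Gene forms of the same enzyme or carrier were then set side by side. Of 36 pairs with a form listed for heart or muscle and another form, both forms were measured for 27. The first is called the muscle form here. This holds also for Ldhb, the heart form of lactate dehydrogenase, and for Idh2, the mitochondrial partner of the cytosolic Idh1. In 13 of the 27 the muscle form was called higher in heart and the other form higher in liver, in 9 only the muscle form was called, in 5 only the other form, and in no pair were the calls turned round. The pairs were listed for this known division, so their count is a description. The shift of the log2 ratio of the forms, heart minus liver, was largest for the fatty acid binding proteins Fabp3 and Fabp1 (14.9 ± 0.73, SD over the 3 genotypes). Fabp3 read 13.97, 13.85 and 14.01 in heart and 6.73, 6.46 and 6.72 in liver, and Fabp1 read 7.47, 7.02 and 6.24 in heart and 14.36, 14.51 and 14.54 in liver. Next came the gap junction genes Gja1 and Gjb1 (10.7 ± 0.08), the glycogen phosphorylases Pygm and Pygl (9.42 ± 0.40), the glucose carriers Slc2a4 and Slc2a2 (9.26 ± 0.59) and the fatty acid transport proteins Slc27a1 and Slc27a2 (8.06 ± 0.31). The smallest shift was that of the phosphorylase kinase subunits Phka1 and Phka2 (1.45 ± 0.12).

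In other pairs the muscle form alone was called, or the other form alone. Lactate dehydrogenase had its heart form Ldhb at 13.26, 12.85 and 13.26 in heart and 8.53, 8.58 and 8.32 in liver, while Ldha, the form known from muscle and liver, read 12.1, 11.82 and 11.95 and 12.37, 12.06 and 12.09 (-0.22, 95% interval -0.51 to 0.08). The muscle subunits of cytochrome c oxidase were among the largest differences of the pairs, with Cox8b at 13.59, 13.33 and 13.52 in heart and 6.96, 6.58 and 6.96 in liver, Cox7a1 at 6.48 and Cox6a2 at 5.71. Of their counterparts, Cox6a1 was called higher in liver (-1.42), while Cox8a (-0.15) and Cox7a2 (0.97) were not called. The adenine nucleotide carrier of heart and muscle, Slc25a4, read 14.09, 13.92 and 14.11 in heart and 7.74, 7.44 and 7.5 in liver, and the widespread Slc25a5 read 12.13, 11.76 and 11.66 and 12.55, 12.67 and 12.4. Elongation factor Eef1a2, the form of muscle and neurons, was higher in heart (4.47), and Eef1a1 was not called (-0.87). In the 5 pairs with a call for the other form alone, the liver forms were the glycogen-targeting subunit Ppp1r3b (-2.91), the glycerol phosphate dehydrogenase Gpd1 (-1.58), the carboxylase Acaca (-1.06), the lipin Lpin2 (-2.5) and the glycerol channel Aqp9 (-5.06). The other probe set of Acaca differed by 0.02.

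**Figure D2:**
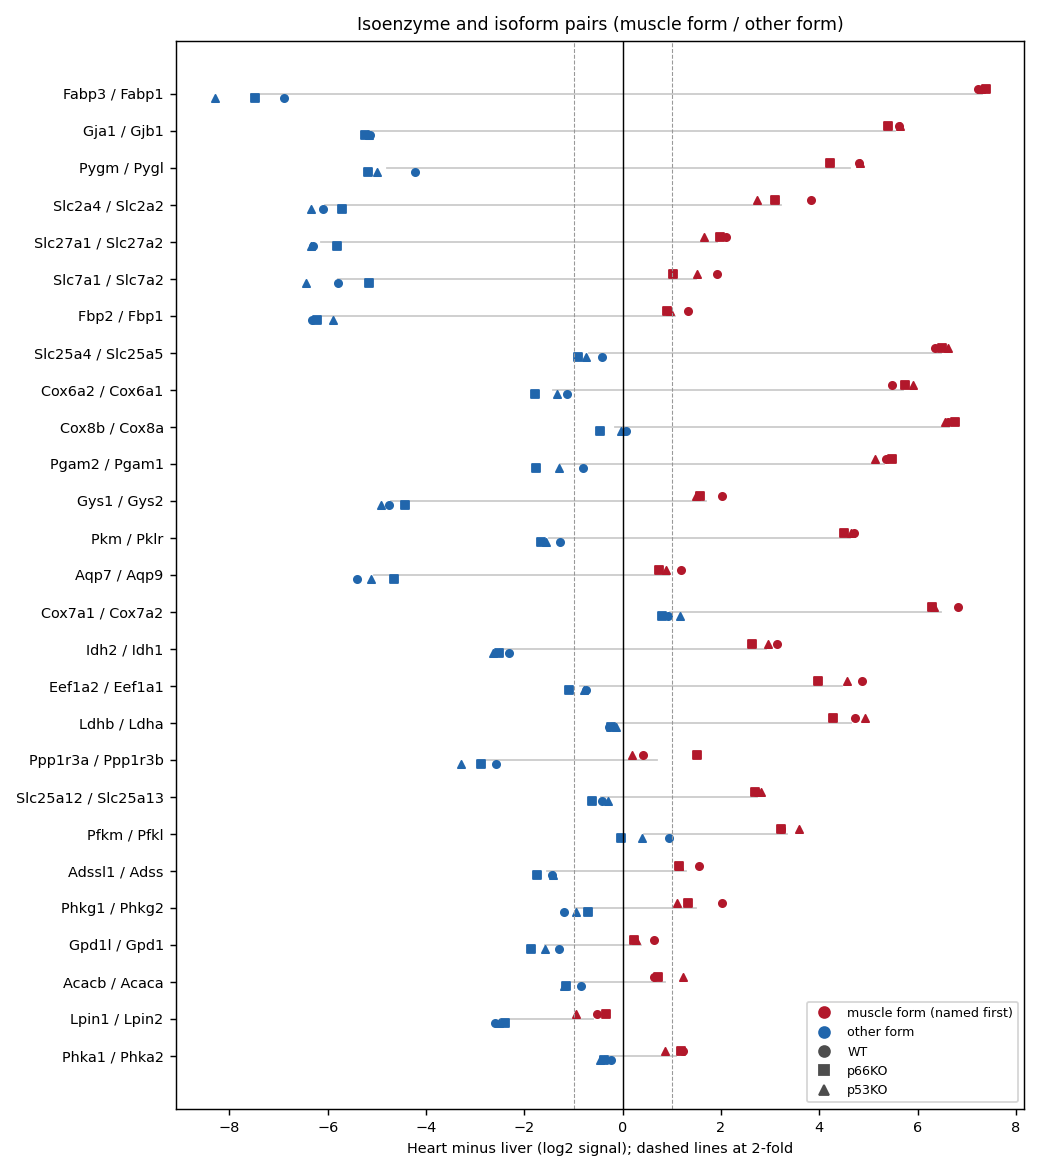
Heart minus liver difference (log2 signal) of the muscle form (red) and the other form (blue) of each of the 27 pairs, with 1 symbol per genotype and dashed lines at 2-fold. Pairs are ordered by the shift of their ratio, and the points of Fabp3 and Fabp1 at the top lie farthest apart, on opposite sides of 0.

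Genes of glucose uptake and breakdown were called in both directions. Of 22 genes of glucose uptake and glycolysis, 10 (45.5%) were called higher in heart and 4 (18.2%) in liver, against 7.76% and 11.0% of all genes. The insulin-responsive carrier Slc2a4 read 11.44, 11.02 and 11.11 in heart and 7.62, 7.93 and 8.38 in liver, and Hk2, the hexokinase of insulin-sensitive tissue, read 10.67, 10.23 and 10.43 and 6.74, 6.46 and 6.69. Eno3 (5.61), Pgam2 (5.33), Ldhb (4.65) and Pkm (4.62) had the largest differences in favour of heart. The 4 called higher in liver were the bidirectional carrier Slc2a2, at 5.59, 5.89 and 5.44 in heart and 11.69, 11.6 and 11.78 in liver, the glucokinase regulator Gckr (-3.9), the liver pyruvate kinase Pklr (-1.5) and Pgam1 (-1.28). Within each of these genes the heart and liver arrays did not overlap, as was so for 54.5% of all genes.

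Genes that make and release glucose were mostly higher in liver. Of 15 measured, 11 were called higher in liver and 2 in heart (median -2.38), against 11.0% and 7.76% of all genes. Fbp1, the fructose bisphosphatase of liver, read 6.99, 7.14 and 7.16 in heart and 13.31, 13.35 and 13.06 in liver. G6pc, which frees glucose for export, read 6.41, 6.9 and 6.31 in heart and 10.79, 11.18 and 10.6 in liver. Pck1, which forms phosphoenolpyruvate, read 8.57, 6.63 and 6.76 in heart and 12.92, 11.81 and 12.15 in liver. The WT heart value of Pck1 lay well above the other heart values, on the array with the highest adipocyte mean, and the part of fat cells in it was not tested. The 2 members called higher in heart were Mdh1 (1.17) and Got1 (1.12), cytosolic enzymes that also serve the malate-aspartate shuttle.

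Glycogen genes were split, with 6 of 19 (31.6%) called higher in heart and 5 (26.3%) in liver, against 7.76% and 11.0% of all genes. Both tissues store glycogen, the heart for itself and the liver for export. Pygm, the muscle phosphorylase, read 12.18, 11.78 and 12.1 in heart and 7.38, 7.56 and 7.28 in liver, and Pygl, the liver form, read 7.96, 7.12 and 7.25 and 12.18, 12.3 and 12.25. The brain form Pygb (3.76) and the primer protein Gyg (3.47) were also higher in heart. The synthase Gys1 (1.7) was higher in heart and Gys2 (-4.71) in liver, where the glycogen-binding protein Stbd1 (-4.29) was higher too.

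Genes of the complex that passes pyruvate into the tricarboxylic acid cycle were mostly higher in heart, and so was 1 of the 4 kinases that switch it off. Of 12 genes of pyruvate dehydrogenase, its kinases and phosphatases, 7 were called higher in heart and 1 in liver. Over all genes these shares were 7.76% and 11.0%. The subunits Dlat (2.39), Pdha1 (2.39), Pdhb (1.45) and Pdhx (1.29) were higher in heart. The largest difference was that of Pdk4, the kinase that switches the complex off in fasting, at 12.9, 11.27 and 11.3 in heart and 7.63, 7.31 and 5.98 in liver. The other kinases, Pdk1 (-0.41), Pdk2 (0.84) and Pdk3 (0.71), were not called. The values of Pdk4 spread more than those of most genes, with the WT array highest in both tissues, but the lowest heart value was well above the highest liver value. The phosphatases, which switch the complex on, went apart, with Pdp1 higher in heart (2.73) and Pdp2 in liver (-1.2).

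**Figure D3:**
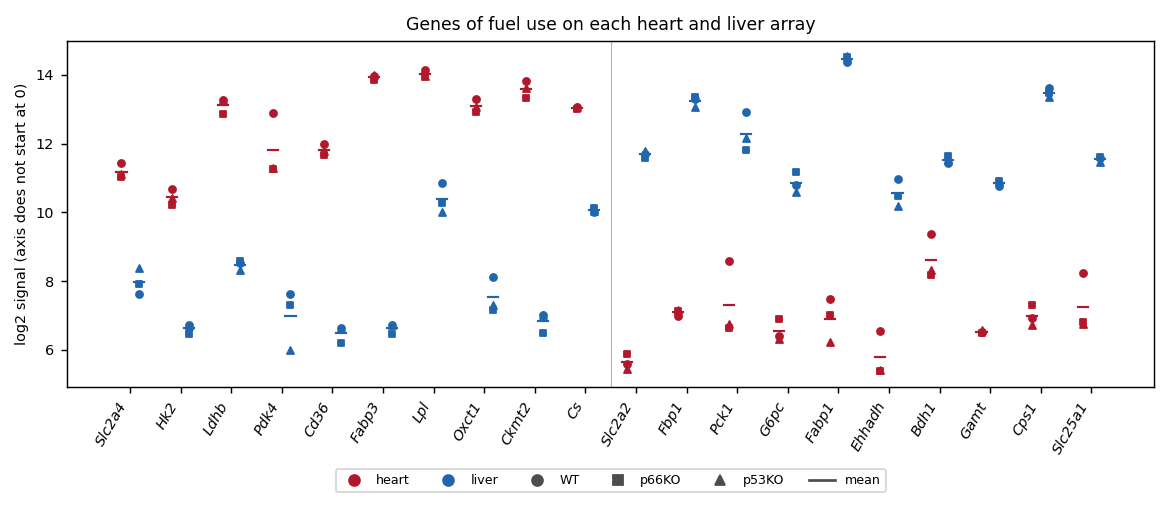
Log2 signal (vertical axis, not from 0) of 20 genes of fuel use on each heart array (red, left) and liver array (blue, right), with 1 symbol per genotype and a line at the mean. The 10 genes on the left are higher on every heart array and the 10 on the right on every liver array. They were picked with results of these data known, so this separation follows from the choice. Heart and liver arrays did not overlap for 54.5% of all genes. The WT heart array is the highest heart array for several genes on both sides. Examples are Pdk4, Hk2 and Lpl on the left and Pck1, Bdh1, Ehhadh and Slc25a1 on the right.

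Genes of fatty acid uptake were also called in both directions. Of 23 genes of uptake, droplet lipolysis and the carnitine shuttle, 8 (34.8%) were called higher in heart and 9 (39.1%) in liver (median -0.04). The shares of all genes were 7.76% and 11.0%. The heart genes included Cd36, the fatty acid translocase, at 11.99, 11.68 and 11.78 in heart and 6.64, 6.19 and 6.62 in liver, and the lipase Lpl, which frees fatty acids from lipoproteins at the vessel wall, at 14.15, 13.96 and 13.98 and 10.85, 10.28 and 10.01. Vldlr (3.71), the droplet coat Plin4 (3.03) and the lipases Pnpla2 (1.43) and Lipe (1.19) were also higher in heart. Adipocytes express Cd36, Lpl, Plin4, Pnpla2 and Lipe too, and the part of the fat cells on the heart arrays was not tested. The liver genes included the transport proteins Slc27a5 (-6.22) and Slc27a2 (-6.15), the acyl-CoA synthetase Acsl5 (-3.36), and Cpt1a (-2.07), the liver form of the gate into mitochondria.

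Genes of mitochondrial beta oxidation were called higher in heart or not at all. Of 18 genes 6 were called higher in heart and 0 in liver (median 0.64), against 7.76% and 11.0% of all genes. The thioesterases Acot2 (3.08) and Acot13 (2.47) led, followed by Hadhb (2.09) and Hadha (1.23) of the trifunctional protein and the dehydrogenases Acadl (1.79) and Acadm (1.1). The 3 probe sets of Hadhb disagreed, with differences between -0.02 and 2.09. In the fit of all 12 arrays, 9 of the 18 were 2-fold or more higher than lung and thymus in heart and in liver alike, against 117 of 18193 genes (0.643%). Peroxisomal oxidation, which shortens very long chains and bile acid precursors, went the other way, with 12 of 18 called higher in liver and 0 in heart (median -2.14). The thiolase Acaa1b read 5.94, 5.18 and 5.01 in heart and 13.36, 13.14 and 13.06 in liver, and the bifunctional enzyme Ehhadh read 6.56, 5.38 and 5.43 and 10.99, 10.49 and 10.19.

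Ketone bodies are made in liver and burned in heart, and few of their genes were measured. Oxct1, the enzyme that activates ketone bodies for oxidation and that liver is known to lack, read 13.29, 12.92 and 13.07 in heart and 8.13, 7.16 and 7.3 in liver (5.57 ± 0.16, SE). All its 4 probe sets agreed, with differences from 4.85 to 5.81. Bdh1, which interconverts acetoacetate and hydroxybutyrate, read 9.38, 8.17 and 8.33 in heart and 11.44, 11.64 and 11.53 in liver. The thiolase Acat1 (-0.54) and the monocarboxylate carrier Slc16a1 (0.69) were not called.

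Genes of lipid synthesis were mostly higher in liver. Of 25 genes of fatty acid and sterol synthesis, 21 (84.0%) were called higher in liver and 0 in heart. Over all genes these shares were 11.0% and 7.76%, and the median difference of the list was -2.22. The sterol enzymes Idi1 (-5.36), Cyp51 (-4.93) and Dhcr7 (-4.04) and the elongase Elovl5 (-4.03) led. Idi1 read 6.96, 6.48 and 6.33 in heart and 12.07, 12.11 and 11.67 in liver. Fatty acid synthase Fasn differed less, with 9.57, 8.84 and 8.92 in heart and 10.58, 10.43 and 10.61 in liver, and the citrate lyase Acly read 8.99, 8.08 and 8.0 and 11.4, 11.4 and 11.1. The WT heart array was the highest heart array for both. Of the 4 members not called, Acacb, whose product restrains fatty acid entry into mitochondria, had a difference of 0.85, and the malic enzyme Me1 of -0.02.

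**Figure D4:**
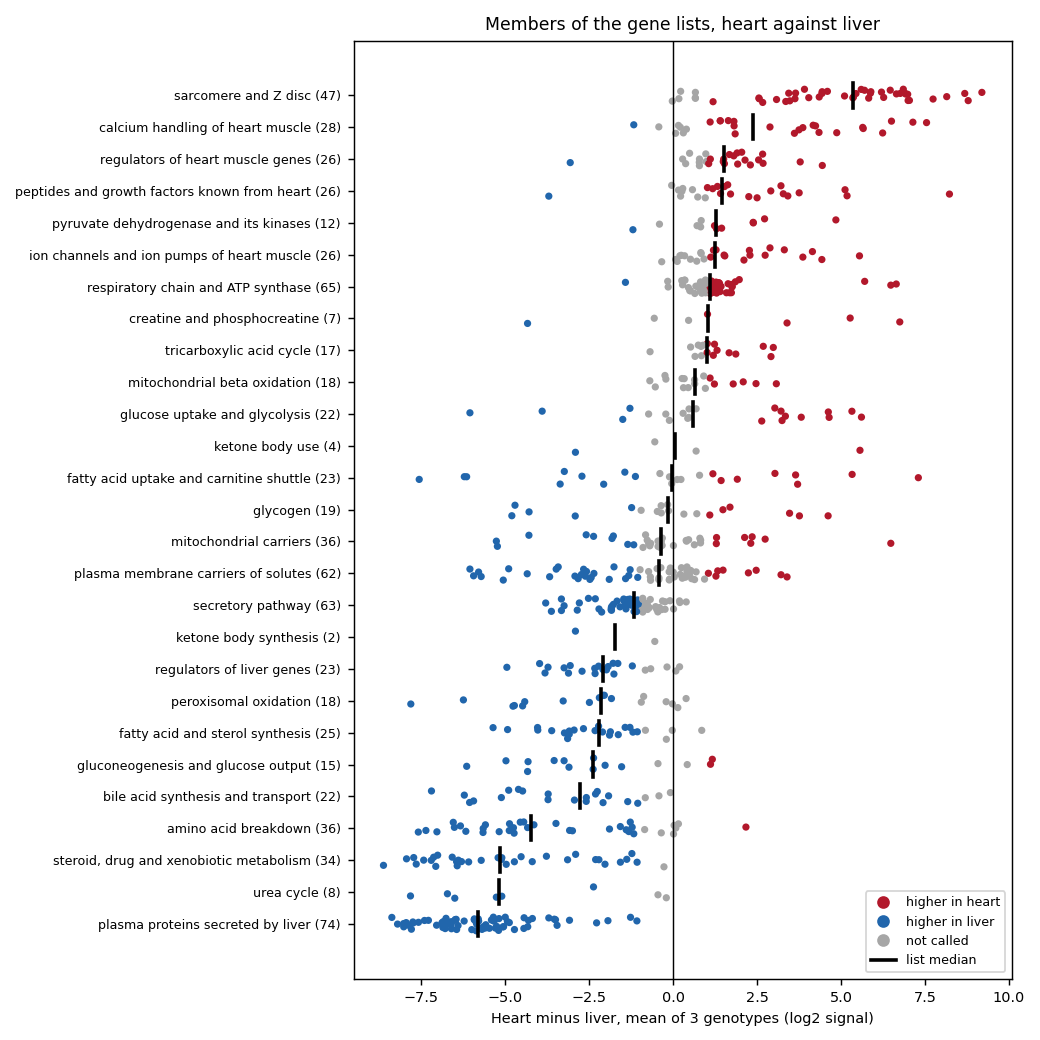
Heart minus liver difference (mean of 3 genotypes, log2 signal) of each measured member of the pathway lists, in red where called higher in heart, in blue where called higher in liver and in grey where not called, with the list median as a black bar and the number measured in brackets. Medians run from 5.36 for the sarcomere to -5.80 for plasma proteins, with the lists of fatty acid uptake and glycogen spread to both sides of 0.

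Genes of mitochondrial oxidation were mostly higher in heart, many by about 2-fold. Of 17 tricarboxylic acid cycle genes 10 were called higher in heart and 0 in liver, against 7.76% and 11.0% of all genes. Their median difference was 1.02. Citrate synthase Cs averaged 13.04 ± 0.039 in heart and 10.06 ± 0.052 in liver (SD, n = 3 each), and its heart and liver arrays did not overlap. Idh2, the mitochondrial NADP-linked isocitrate dehydrogenase, read 12.4, 12.26 and 12.39 in heart and 9.25, 9.62 and 9.43 in liver, while its cytosolic partner Idh1 was higher in liver (-2.49). Of 65 genes of the respiratory chain and ATP synthase, 36 (55.4%) were called higher in heart and 1 in liver, with a median of 1.11. Apart from the 3 muscle subunits of cytochrome c oxidase, the largest was Ndufa5 of complex I (1.97), and many members lay close to the 2-fold line. The count for the cycle was 8 and that for the chain 34 without the WT heart array.

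Phosphocreatine genes were split between the organ that makes creatine and the one that uses it. The mitochondrial creatine kinase Ckmt2 read 13.82, 13.33 and 13.63 in heart and 7.01, 6.5 and 7.01 in liver, the muscle kinase Ckm 13.53, 12.95 and 13.64 and 8.4, 7.61 and 8.29, and the creatine carrier Slc6a8 10.92, 10.69 and 10.63 and 7.19, 7.32 and 7.55. All were called higher in heart. Gamt, which completes creatine synthesis, read 6.52, 6.5 and 6.57 in heart and 10.78, 10.91 and 10.9 in liver. Gatm, the first enzyme of the synthesis, was below silence on all 6 arrays on its probe set.

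Genes of nitrogen disposal were mostly higher in liver. Of 36 genes of amino acid breakdown, 29 (80.6%) were called higher in liver and 1 in heart, against 11.0% and 7.76% of all genes. The list median was -4.24. The methionine and homocysteine enzymes Bhmt (-7.59), Mat1a (-7.36) and Cth (-7.03) and the tryptophan oxygenase Tdo2 (-6.55) led. The exception was Bcat2, which starts the breakdown of branched-chain amino acids, at 9.74, 9.12 and 9.47 in heart and 7.36, 6.99 and 7.46 in liver. The next enzyme complex of that route, with Bckdha (-1.17), Bckdhb (-1.89) and Dbt (-1.4), was higher in liver. For Uroc1 the chosen probe set did not differ (0.16), whereas the other was lower in heart (-3.73).

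Of 8 urea cycle genes 6 were called higher in liver and 0 in heart (median -5.18), against 11.0% and 7.76% of all genes. Arginase Arg1 read 4.61, 4.77 and 4.57 in heart and 12.86, 12.15 and 12.39 in liver, and the first enzyme, Cps1, read 6.92, 7.3 and 6.72 and 13.61, 13.46 and 13.37. The probe set of Ass1 was below silence on all 6 arrays, so that this enzyme was not measured here. Of 22 bile acid genes 19 were called higher in liver, led by Cyp7b1 (-7.19), Slc27a5 (-6.22) and the canalicular pump Abcb11 (-6.06), and 33 of 34 genes of steroid, drug and xenobiotic metabolism were called higher there. No member of either list was called higher in heart. Ugt2b5, a glucuronosyltransferase, read 4.44, 4.13 and 4.2 in heart and 12.9, 12.85 and 12.89 in liver. Genes of the Ugt2b, Cyp and Mup families are similar in sequence, and probe sets may read several members.

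More carriers of the plasma membrane were called higher in liver than in heart. Of 62 measured, 25 (40.3%) were called higher in liver and 8 (12.9%) in heart, against 11.0% and 7.76% of all genes. The liver carriers included the bile acid carrier Slc10a1, at 5.61, 6.19 and 5.78 in heart and 11.84, 11.73 and 11.83 in liver, the cationic amino acid carrier Slc7a2 (-5.79), the amino acid carrier Slc38a4 (-5.71) and the glycerol channel Aqp9 (-5.06). The 8 of heart were Slc6a8, Slc2a4, Slco3a1 (2.48), the magnesium carrier Slc41a1 (2.24), Slc7a1 (1.49), the glutamine carrier Slc1a5 (1.33), the water channel Aqp1 (1.28) and Slc43a3 (1.05). Aqp1 is also an endothelial gene. The carnitine carrier Slc22a5 read 8.76, 8.65 and 8.66 in heart and 9.34, 8.48 and 8.56 in liver and was not called. Slco1b2, a liver carrier, was not called on its chosen probe set (-0.08), but another reached -7.46.

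Mitochondrial carriers were nearly balanced, with 7 of 36 (19.4%) called higher in heart and 9 (25.0%) in liver, against 7.76% and 11.0% of all genes. Heart had more of Slc25a4, the aspartate-glutamate carrier Slc25a12 (2.74), the oxoglutarate carrier Slc25a11 (2.13), Slc25a36 (2.36), Slc25a34 (2.31), the phosphate carrier Slc25a3 (1.3) and Ucp3 (1.29). Liver had more of the ornithine carrier Slc25a15, which serves the urea cycle, at 7.67, 7.11 and 6.89 in heart and 12.85, 12.39 and 12.21 in liver, of Slc25a47 (-5.23) and of the citrate carrier Slc25a1, which exports citrate for lipid synthesis. Slc25a1 read 8.23, 6.81 and 6.75 in heart and 11.58, 11.61 and 11.48 in liver, and its WT heart value stood above the other heart values.

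Genes of secreted proteins were listed as a liver set and a heart set, chosen with earlier results of these data known. Their counts are therefore a description. All 74 plasma protein genes were called higher in liver, against 11.0% of all genes. Their differences ran from -1.08 for Pros1 to -8.37 for Fgb, with a median of -5.80. Fgb read 6.36, 5.44 and 4.97 in heart and 14.07, 13.92 and 13.9 in liver. Albumin Alb read 9.62, 8.86 and 7.77 in heart and 14.79, 14.74 and 14.71 in liver and was above silence on all 3 heart arrays, whereas Fgb was above it on none of them. The largest difference of all genes in favour of liver was that of the protease inhibitor Mug1 (-8.73 ± 0.16, SE; adjusted p = 4e-13, limma), at 5.38, 4.8 and 4.56 in heart and 13.77, 13.58 and 13.6 in liver. Of 63 secretory pathway genes 40 (63.5%) were called higher in liver and 0 in heart (median -1.17), against 11.0% and 7.76% of all genes. They were led by the coat protein genes Sec24a (-3.79) and Sec16b (-3.62), the lipoprotein assembly protein Mttp (-3.33) and the oxidase Ero1b (-3.33), and Sec61a1 of the translocation channel read 9.36, 8.44 and 8.76 in heart and 12.04, 11.6 and 11.49 in liver.

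Of 26 peptides and growth factors known from heart, 17 (65.4%) were called higher in heart and 1 in liver. Over all genes these shares were 7.76% and 11.0%. Nppa, the atrial natriuretic peptide, read 14.41, 13.8 and 14.17 in heart and 5.82, 5.87 and 5.99 in liver, and Nppb, the related peptide of ventricles, read 11.62, 11.45 and 11.23 and 6.23, 6.4 and 6.31. Fgf13 (5.18), Fstl1 (3.76), Ccn2 (3.42) and Vegfb (3.28) followed. Fgf13 and Fgf12 (1.71), both among the 17, are known as intracellular factors that act on sodium channels and are not secreted. Several of the others, such as Ccn2, Postn (2.26) and Fstl1, are also made by fibroblasts, whose 12 markers were all higher in heart. The member called higher in liver was Igf1, the main endocrine growth factor of liver, at 9.47, 9.06 and 9.11 in heart and 12.92, 12.91 and 12.91 in liver, whereas Igf2 was higher in heart (2.5).

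Listed regulators of tissue genes were mostly higher in the tissue they are listed for. Of 26 regulators of heart muscle genes, 17 were called higher in heart, led by Tbx20 (4.44), Popdc2 (3.79), Mef2c (2.68) and Nkx2-5 (2.67). Of 23 regulators of liver genes 18 were called higher in liver and 0 in heart, led by Foxa3 (-4.95), Cebpa (-3.97), Hnf4a (-3.81) and Nr1h4 (-3.72). Over all genes 7.76% were called higher in heart and 11.0% in liver. Popdc2 and Popdc3 (2.3), also among the 17, are membrane proteins that bind cyclic AMP and no transcription factors. Ppara, the receptor that drives fatty acid oxidation and stands in both lists, read 7.62, 7.45 and 6.98 in heart and 10.63, 10.5 and 10.1 in liver. Its coactivator Ppargc1a read 8.76, 8.91 and 8.18 in heart and 6.73, 6.52 and 6.88 in liver, the opposite direction. The estrogen-related receptor Esrra, which acts with Ppargc1a on mitochondrial genes, was called higher in heart (1.11), but its probe sets ranged from -0.35 to 1.11.

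Genes equal in heart and liver were sought in a limma fit of all 12 arrays. The 95% interval of heart minus liver had to lie within a difference of 1 either way, and both tissues had to differ 2-fold or more in the same direction from lung and from thymus, each with an adjusted p under 0.05. By this rule 61 genes (0.335%) were equal and higher, and 86 (0.473%) were equal and lower. Of these, 20 of the 61 and 4 of the 86 met the rule in all 18 alternative fits.

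Several lung and thymus arrays had signal in marker lists of other tissues, and its source was not tested. Hepatocyte markers averaged 10.16, 9.15 and 6.85 on the lung arrays. Cardiomyocyte markers averaged 9.03, 8.69 and 8.48 on the lung arrays and 8.52, 8.38 and 7.02 on the thymus arrays. Skeletal muscle markers averaged 8.70, 8.58 and 7.51 on the lung arrays and 6.52, 6.31 and 9.5 on the thymus arrays. Salivary gland markers averaged 14.0, 5.24 and 5.18 on the thymus arrays. Without each lung and thymus array in turn, the equal and higher genes numbered 61 to 69. The equal and lower genes numbered 65 to 100 without 1 of these arrays, except for 207 without the WT thymus array.

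The equal and higher genes held 5 of the 18 beta oxidation genes, which were Acadvl, Acaa2, Acads, Etfb and Echs1, and 2 of the 23 genes of fatty acid uptake, against 0.335% of all genes. Acadvl, which starts the breakdown of long chains, read 12.54, 12.1 and 12.22 in heart and 12.19, 12.02 and 11.84 in liver. Cpt2, the inner carnitine palmitoyltransferase, read 11.72, 11.09 and 11.24 in heart, 11.41, 11.25 and 11.02 in liver, 9.67, 9.43 and 8.98 in lung and 9.34, 9.65 and 8.6 in thymus. Plin5, the droplet coat of oxidative tissues, read 10.73, 9.91 and 9.5 in heart, 10.73, 9.79 and 9.74 in liver, 7.56, 7.27 and 6.51 in lung and 6.82, 7.18 and 7.12 in thymus. Both tissues thus held about the same signal of these genes, and every heart and liver array was above every lung and thymus array. Others were Got2 (mitochondrial aspartate aminotransferase, 0.21), Coq8a (coenzyme Q synthesis, 0.01), the citramalyl-CoA lyase Clybl (0.09), the aspartate-glutamate carrier Slc25a13 (-0.45) and Abhd18 (0.25). The rule admits genes that differ by less than 2-fold. For Slc25a13 the whole interval, -0.78 to -0.12, favoured liver, and every liver array lay above every heart array. The widest gap to lung and thymus was that of Cdh2, the N-cadherin that joins cardiomyocytes and also hepatocytes, at 10.73, 9.79 and 9.9 in heart, 10.34, 9.96 and 10.26 in liver, 5.59, 5.08 and 4.24 in lung and 4.0, 4.98 and 4.46 in thymus. The second probe set of Cdh2 differed more between heart and liver, with a difference of 1.02.

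The 8 equal and lower genes farthest from lung and thymus were led by Cytip, a partner of cytohesin in leukocytes, at 6.53, 5.66 and 5.51 in heart, 5.67, 5.87 and 5.86 in liver, 10.63, 10.81 and 10.41 in lung and 10.73, 11.75 and 11.45 in thymus. Galectin Lgals3, a macrophage product, read 7.49, 6.92 and 6.77 in heart, 6.93, 6.8 and 6.85 in liver, 11.89, 11.6 and 11.3 in lung and 10.31, 9.85 and 9.45 in thymus. Cytip, Rab27a, Myb and Cdc14a were below silence on all heart and liver arrays, so that they were equal there at the bottom of the scale. Lgals3 lay near silence, below it on the p66-/- and p53-/- arrays of both tissues and above it on their WT arrays. Shisa5, Mkrn1 and Dynll1 were equal at levels above it, at 10.45, 9.91 and 10.11 in heart and 10.37, 10.2 and 10.19 in liver for Shisa5. The count of equal and lower genes was 278 without the WT thymus and p53-/- lung arrays together.

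**Figure D5:**
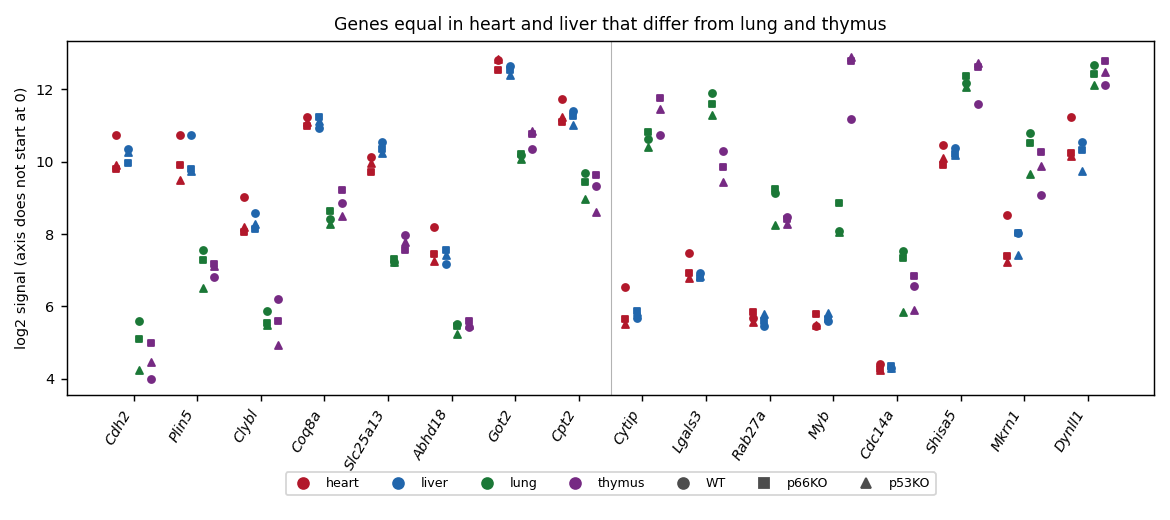
Log2 signal (vertical axis, not from 0) of the 8 equal and higher genes (left) and the 8 equal and lower genes (right) with the widest gap to lung and thymus, on each array of heart, liver, lung and thymus, with 1 symbol per genotype. Heart and liver points of a gene overlap or lie close, while lung and thymus points lie below them on the left and above them on the right.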

How the data were processed

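Total RNA of freshly isolated tissue was labelled and hybridised to Affymetrix mouse arrays. The deposited values are log2 signals of probe sets. Per the labels, the authors used RMA (background correction, quantile normalization over the arrays and median polish) in Partek 6.5. The quantile step brings the arrays to a like distribution, and medians over the genes used were 7.14 to 7.16 in heart and 7.04 to 7.10 in liver. Differences of genes at the bottom of the scale are limited. Of 45101 probe sets, 64 controls, 932 with several gene symbols and 9160 with none were left out. Symbols came from the platform annotation, with 34741 Entrez numbers matched to RefSeq and 0 symbols updated. The brightest probe set over the 12 arrays stood for each of 18193 genes. For 1523 genes the suffix of that probe set, _x_at or _s_at, marks probes that can also bind related transcripts.

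Heart minus liver was fitted with limma 3.58.1 (lmFit and eBayes, R 4.3.3) on 6 arrays with genotype as a block (2 residual and 10.6 prior degrees of freedom), and p-values were adjusted over all genes. A second limma fit of all 12 arrays, by tissue and genotype, gave the genes equal in heart and liver. Both fits were tested on simulated data. Of 200 simulated heart minus liver differences of 1 on the log2 scale, 96 met both thresholds, and of 200 of 1.5 all 200 did. Of 200 genes shifted alike in heart and liver, 31 met the rule for equal genes at a shift of 1 and 181 at 1.5. Tables and plots were made with Python 3.11.15, numpy 2.4.6, pandas 2.3.3 and matplotlib 3.10.9. The number of arrays limits the precision, and no raw intensity was used. Promoter sequences are from RefSeq (GRCm38.p6).

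The genes named were the 10 with the largest difference in each direction, from each list up to 4 called members per direction and those called against the rest of the list, both members of each pair, and the 8 equal genes in each direction with the widest gap to lung and thymus. Other members were named after their values were seen. The lists, pairs and this rule were chosen with earlier results of these data known. The alternatives were other scalings, probe set choices, filters, thresholds and fits, and each genotype left out in turn. The brightest probe set over the 6 arrays the fit without the WT heart array and the fits without each lung and thymus array were added after seeing the data. The p53 transcript was not analysed here.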

Additional observations from a re-analysis of the deposited data

Results flagged for a closer look

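The control probe set for 18S ribosomal RNA, which no comparison used, was 3.17 higher in heart on the log2 scale. It read 10.42, 10.24 and 10.64 on the WT, p66-/- and p53-/- heart arrays and 7.29, 7.05 and 7.45 on the liver arrays. The 3 prime minus 5 prime difference of the Gapdh control probe sets, a sign of RNA length, was 0.41, 0.31 and 0.25 in heart and 0.95, 0.90 and 0.82 in liver. The part of either in the results was not tested.

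The salivary gland list averaged 2.56 higher in heart than in liver in WT, but 0.06 in p66-/- and -0.29 in p53-/-, so that the sign turned between genotypes. With 1 array per tissue and genotype this difference was not tested. Amy1, an amylase, was the member called higher in liver (-6.11).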

How the results depend on the processing

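At 1.5-fold, 2840 genes were higher in heart and 3103 in liver, and at 4-fold 477 and 880, with 5 pairs divided. The equal and higher genes numbered 9 with an interval within 0.5 either way, and 158 and 5 at 1.5-fold and 4-fold against lung and thymus, and the equal and lower genes 3, 233 and 5. The equal and lower genes numbered 52 among brighter genes and 278 without the WT thymus and p53-/- lung arrays. Leaving out each genotype in turn gave 1303 to 1534 genes higher in heart, 1939 to 2125 higher in liver, 12 to 15 divided pairs, 44 to 61 equal and higher genes, and 23 to 216 equal and lower genes, 216 of them without WT, 23 without p66-/- and 35 without p53-/-. Leaving out each lung and thymus array in turn gave 61 to 69 equal and higher genes and 65 to 207 equal and lower genes, 207 of them without the WT thymus array. Under all other settings these counts stayed within 1.5 times. Calls higher in heart made up 41.3% of all calls, and 37.3% to 47.5% under other scalings. The median difference of all genes was 0.14 as deposited and 0.01 after cyclic loess. Of 157 called genes named by the rule, 141 kept their call under all 14 alternatives that held them. Those that lost it in at least 1 were Acaca, Ckb, Fbp2, Got1, Gpd1, Hadhb, Itpr2, Lipe, Mdh1, Phka1, Pnpla2, Slc1a5, Slc25a3, Slc43a3, Slc7a1 and Ucp3. Itpr2 turned to 0.31 without probe sets ending in _x_at or _s_at, and the cause was not tested. Without the WT heart array, 12 pairs were divided, since Fbp2 lost its call. The fit paired the heart and liver arrays by genotype, and without that block 1401 genes were higher in heart and 2006 in liver. RMA gives no detection calls, so levels near silence are bounds of the scale.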

Other observations

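Markers of the cells that line and support the liver were called in both directions. Of 6 markers of liver sinusoid endothelium, Stab2 (-2.84), a scavenger receptor, Clec4g (-2.37) and Oit3 (-1.43) were called higher in liver on the log2 scale, while the lymphatic marker Lyve1 was called higher in heart (1.89). Of 12 macrophage markers, the Kupffer cell genes Cd5l (-2.53), Clec4f (-2.49), Vsig4 (-1.64) and Timd4 (-1.04) were called higher in liver and Lyz2 (1.94) in heart. The general macrophage genes Csf1r (0.27) and Adgre1 (0.35) were not called. Of 6 stellate cell markers, Colec11 (-2.48), Reln (-2.32) and Lrat (-1.38), which stores vitamin A, were called higher in liver, whereas Rgs5 (2.22) and Des (4.43), which pericytes and cardiomyocytes also express, were called higher in heart. These calls are from the limma fit of the 6 arrays, with the same thresholds. Over all genes 7.76% were called higher in heart and 11.0% in liver.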
